A study of Mus musculus with 5 samples.

Results

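The genes described here are the antigen presentation genes of the mouse major histocompatibility complex (MHC), measured by bulk RNA-seq in liver tumours driven by Akt and Notch, with or without late overexpression of the transcription factor Prox1. Members were every gene whose symbol starts with H2- and whose mean normalised count over the 5 libraries was at least 10, plus B2m, Cd74, Ciita, Nlrc5, Tap1, Tap2, Tapbp, Psmb8, Psmb9 and Psmb10. This gave 38 of the 55397 genes in the table, namely 28 H2 genes and 10 genes by symbol, and 33 of them lay on chromosome 17. The rule used each gene's mean over all libraries and not its difference between groups, and all 38 entered the test. H2-M6-ps, with 9.04 and 6.78 normalised counts in Control, met the mean of 10 only through its Prox1 OE values of 46.3 to 55.2. Its rise is therefore not independent of the rule. A further 17 H2 genes were under the mean of 10, of which 12 had no read in any library. H2-Bl, with a mean of 23.2, was the lowest H2 gene inside the rule, and H2-Eb2, with a mean of 9.40, was the highest outside it.

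Female C57BL/6N mice aged 8 weeks received plasmids by hydrodynamic tail vein injection (HDTVI), which forces DNA into hepatocytes. Every mouse received CMV-Sleeping Beauty transposase, pT3-EF1a-AKT and pT3-EF1a-NICD-IRES-rtTA, where NICD is the intracellular domain of the Notch receptor and rtTA the protein through which doxycycline switches on a Tre promoter. The Prox1 OE group also received pT3-Tre-FLAG-mmProx1-IRES-GFP, and the Control group the empty pT3-Tre-IRES-GFP. Both groups ate a 6.25% doxycycline diet from day 21, which gave overexpression of Prox1 between weeks 3 and 4 in tumours that resemble cholangiocarcinoma, a cancer of bile duct type. The labels give 2 Control and 3 Prox1 OE libraries. They do not say which tumours were taken after a week of overexpression and which at a humane endpoint, nor that each library was a separate mouse, so p-values measure the spread between these libraries. The labelled cells are transformed hepatocytes, but whole tumours were dissected, and a larger share of cells of some type cannot be told apart from more RNA per cell.

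Recovered depth was 48740863 to 56629477 reads per library and overlapped between groups. Prox1 itself was at 4153 and 4664 normalised counts in Control, against 48090, 11113 and 8231 in Prox1 OE libraries 1, 2 and 3. All 3 Prox1 OE values were above both Control values, with library 1 far above the other two, and the difference did not pass the test (log2 fold change, abbreviated log2FC, 1.90, limma adjusted p = 0.061). Of 8 cholangiocyte markers 7 were lower in Prox1 OE, and of 7 hepatocyte markers 6 were higher. Over all genes tested, 16.2% were called lower and 17.1% higher.

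MHC class I molecules consist of a heavy chain and β2-microglobulin, the product of B2m, and show peptides from inside the cell to CD8 T cells. The peptides are cut by the proteasome, whose interferon-inducible subunits are Psmb8, Psmb9 and Psmb10, carried into the endoplasmic reticulum by Tap1 and Tap2, and loaded with the help of tapasin, the product of Tapbp. Class II molecules pair an α and a β chain, are guided by the invariant chain Cd74 and edited by H2-DM, and show peptides from endosomes to CD4 T cells. Nlrc5 and Ciita are the transactivators of class I and class II genes. Most nucleated cells carry class I, whereas class II is mainly found on macrophages, dendritic cells and B cells.

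The promoters of the classes are shown first, because transactivators and interferon-responsive factors act there. RefSeq windows of GRCm38.p6, from 250 bases before to 50 after each gene's start, were at hand for 26 of the 38 members. Class I chains held 13 of these, class I processing genes 5 and class II chains 7. The 200 bases before the start are printed 5′ to 3′ for a classical class I gene (H2-K1), for the class I gene with the largest mean count over the 5 libraries, though not in Control alone (H2-Q10), for a class I gene whose level was alike in both groups (H2-Q4), for B2m and for a pair of class II chains (H2-Aa and H2-Eb1). Capitals mark matches on either strand to the letters searched, described after them.
H2-K1, chr17:34000348-34000547, minus strand: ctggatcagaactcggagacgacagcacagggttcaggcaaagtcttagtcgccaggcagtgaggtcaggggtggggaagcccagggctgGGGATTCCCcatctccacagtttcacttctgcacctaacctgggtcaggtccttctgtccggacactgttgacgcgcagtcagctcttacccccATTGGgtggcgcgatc
H2-Q10, chr17:35469889-35470088, plus strand: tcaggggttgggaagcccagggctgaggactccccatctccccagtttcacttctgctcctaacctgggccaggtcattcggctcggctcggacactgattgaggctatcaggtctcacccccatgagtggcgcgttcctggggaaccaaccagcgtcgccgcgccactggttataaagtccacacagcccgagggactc
H2-Q4, chr17:35379417-35379616, plus strand: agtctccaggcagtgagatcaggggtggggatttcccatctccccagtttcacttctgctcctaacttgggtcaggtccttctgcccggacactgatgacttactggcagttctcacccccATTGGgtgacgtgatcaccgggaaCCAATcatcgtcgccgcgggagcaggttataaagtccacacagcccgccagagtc
B2m, chr2:122147487-122147686, plus strand: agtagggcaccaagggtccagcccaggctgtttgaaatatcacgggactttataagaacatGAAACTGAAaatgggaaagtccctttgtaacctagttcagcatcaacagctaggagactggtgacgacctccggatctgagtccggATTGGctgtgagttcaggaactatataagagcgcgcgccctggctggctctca
H2-Aa, chr17:34287824-34288023, minus strand: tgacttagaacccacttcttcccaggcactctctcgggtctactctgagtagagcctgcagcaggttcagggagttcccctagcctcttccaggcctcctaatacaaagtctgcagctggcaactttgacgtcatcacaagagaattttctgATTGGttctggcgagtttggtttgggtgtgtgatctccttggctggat
H2-Eb1, chr17:34305667-34305866, plus strand: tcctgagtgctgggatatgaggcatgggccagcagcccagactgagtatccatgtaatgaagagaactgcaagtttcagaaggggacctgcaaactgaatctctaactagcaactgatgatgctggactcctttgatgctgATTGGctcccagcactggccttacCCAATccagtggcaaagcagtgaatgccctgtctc

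The core of the class I enhancer A, searched as GGGATTCCC, was in 4 of 13 class I windows (H2-K1, H2-D1, H2-Q6 and H2-Q7), in none of the 5 processing and 7 class II windows, and in 0.353% of all 32851 windows. The CCAAT box, searched as CCAAT, was in 12 of 13 class I windows, with H2-Q10 the exception, and in 6 of 7 class II windows, with H2-DMa the exception, against 37.4% of all windows. An interferon response core, searched as GAAANNGAA, was in the windows of B2m, H2-T23 and H2-T22 and in 8.56% of all windows. Other spellings were not searched, so the windows of H2-K1, H2-Q10 and H2-Q4, without a match, may still hold such an element. A gamma activation site, TTCNNNGAA, was in those of H2-M3, Psmb8 and H2-DMb2 and in 8.30% of all. The X box of class II promoters, searched as AGCAACAG, matched none of the members' windows and 2.26% of all. After that result was seen, the shorter GCAAC was tried, and it was in 5 of 7 class II windows, 4 of 13 class I windows and 35.2% of all windows. It is not in capitals above. Aligned to the H2-K1 window, the H2-Q10 window had 86.1% identical bases and the H2-Q4 window 86.1%. A match is a run of letters and not a shown binding site, and the lack of a match does not show that a site is missing.

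The comparison asked which MHC genes differed once Prox1 was switched on in formed tumours. Of the 38 members 16 were higher in Prox1 OE, 1 was lower and 21 were not called (limma on log2(normalised count + 1), two-sided, Benjamini-Hochberg adjusted p under 0.05). Across the 17105 genes tested, 33.3% were called, 17.1% as higher and 16.2% as lower. Without Control library 1, without Control library 2 or with scaling to the total count, 10 members were higher. The share of members called higher in the reported fit, 42.1%, was above the share of all genes called higher, and the share called lower, 2.63%, was below that of all genes. Groups did not overlap for 23 of the 38 members (60.5%), near the 63.3% of all genes. The median log2 fold change was 0.59 over the members and -0.02 over all genes tested. With 2 against 3 libraries an exact permutation test of a single gene cannot go below p = 0.1.

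**Figure D1:**
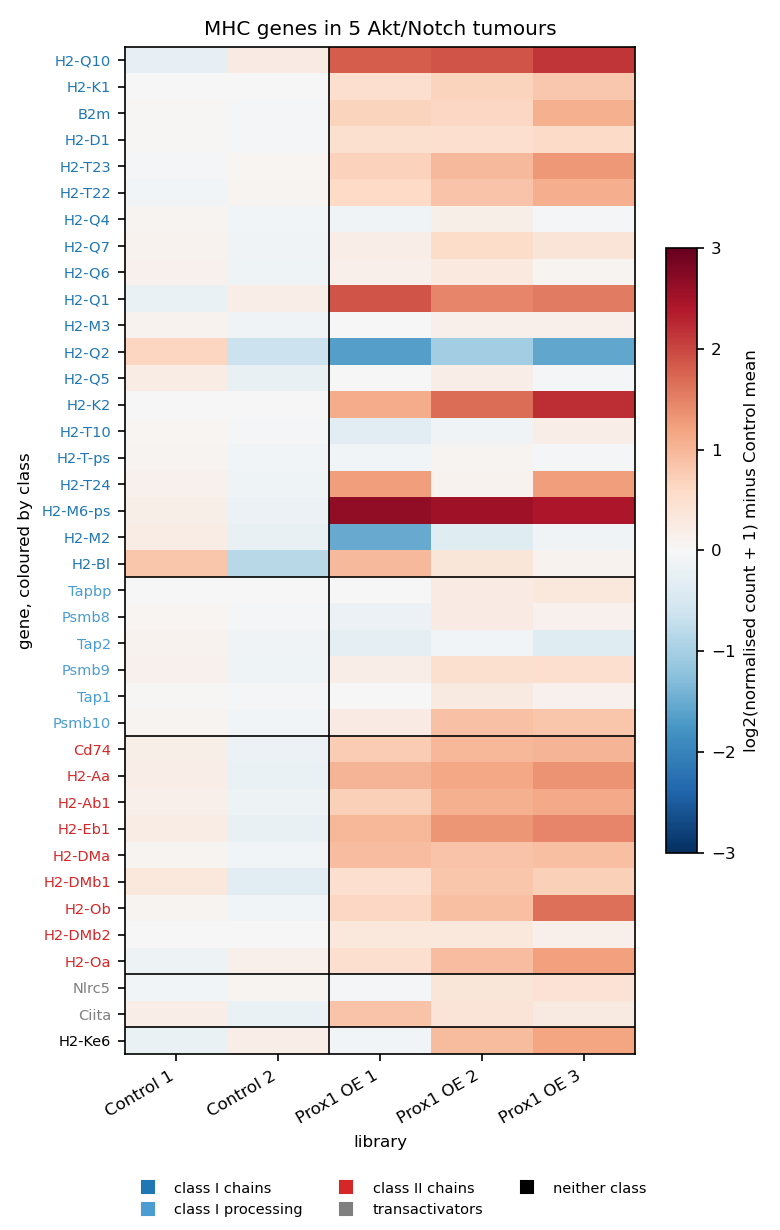
Each row is an MHC gene and each column a library, and colour gives log2(normalised count + 1) minus the Control mean. H2-Q10, H2-Q1, H2-K2 and H2-M6-ps are darkest red in the 3 Prox1 OE libraries, H2-Q2 is blue, and all 9 class II rows are red.

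Class I chains comprised 19 heavy chain genes and B2m. Of these 20 genes, 9 rose, H2-Q2 fell and 10 were not called, with a median log2 fold change of 0.50 and a range from -1.42 to 2.55. The upper end was H2-M6-ps, which met the rule only through Prox1 OE. Among heavy chains, 6 of 13 protein-coding genes and 2 of 6 pseudogenes (H2-K2 and H2-M6-ps) rose. By genomic cluster, of the H2-Q genes 2 rose, 1 fell and 4 were not called, and of the H2-T genes 2 rose and 4 were not called. Over all genes tested, 17.1% were called higher and 16.2% lower.

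H2-Q10, whose product is a secreted class I molecule made by the liver, had 35134 and 49239 normalised counts in Control and 145913, 154703 and 184555 in Prox1 OE. The lowest Prox1 OE library was well above both Control libraries, and the ratio of means was 3.83 (log2FC 1.95, 95% confidence interval 1.42 to 2.49, limma adjusted p = 0.0025). It kept its call under all 16 alternatives. Per kilobase of exon, the level of H2-Q10 was 0.354 and 0.510 of that of H2-K1 in Control and 1.05, 0.993 and 1.08 in Prox1 OE. The summed normalised count of the 7 hepatocyte markers moved the same way, from 703169 and 1143079 in Control to between 2323915 and 3617290 in Prox1 OE. Its part in the H2-Q10 difference was not tested. Of the 100-base windows of H2-Q10 transcripts, 8.01% also occur in transcripts of other genes, chiefly H2-Q7.

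The classical heavy chains rose less. H2-K1 had 66985 and 65293 normalised counts in Control and 93672, 105237 and 115702 in Prox1 OE (log2FC 0.66, limma adjusted p = 0.033). H2-D1 had 46781 and 44515 in Control and 63946, 64993 and 67803 in Prox1 OE (log2FC 0.52, limma adjusted p = 0.038). In both genes the groups did not overlap, and Control libraries differed by less than the gap between groups. B2m, the light chain shared by every class I molecule, had 61342 and 58242 in Control and 95157, 92181 and 125001 in Prox1 OE (log2FC 0.79, limma adjusted p = 0.025). Per kilobase, B2m was at 3.05 to 3.13 times the H2-K1 level in Control and 2.99 to 3.69 times in Prox1 OE, so the ranges of this ratio overlapped. The calls of H2-K1, H2-D1 and B2m were lost when either Control library was left out, and those of H2-K1 and H2-D1 also without Prox1 OE library 2 or 3, although the log2 fold changes stayed between 0.59 and 0.74, 0.49 and 0.56, and 0.65 and 0.87. With no filter on low genes H2-K1 and H2-D1 also lost their call (limma adjusted p = 0.053 and 0.060). Scaled to the total count, H2-K1, H2-D1 and B2m had log2 fold changes of only 0.23, 0.09 and 0.36. None of these was called (limma adjusted p = 0.25, 0.63 and 0.097).

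**Figure D2:**
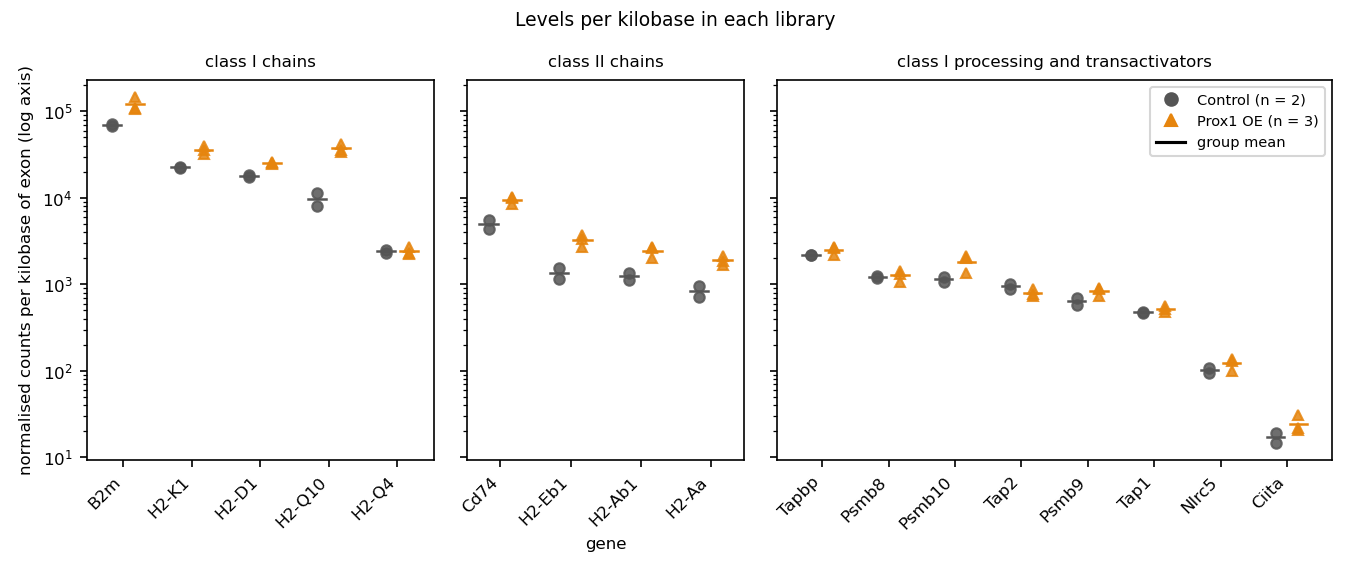
Normalised counts per kilobase of exon are plotted on a log axis for 17 MHC genes, with a circle for each Control library, a triangle for each Prox1 OE library and a line at the group mean. H2-Q10 lies under H2-K1 in Control and near it in Prox1 OE, whereas H2-Q4, Tap1 and Psmb8 overlap between groups.

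Non-classical heavy chains and pseudogenes included further rises and the fall. H2-Q1 had 1058 and 1377 normalised counts in Control and 4451, 3329 and 3570 in Prox1 OE (log2FC 1.64, limma adjusted p = 0.0024). H2-T23, which encodes Qa-1, a ligand of the NKG2A receptor of NK cells, differed by a log2FC of 1.00 (limma adjusted p = 0.0072), and H2-T22, which encodes a ligand of some γδ T cells, one of 0.85 (limma adjusted p = 0.0080). Both lost their call without Control library 1. H2-K2, a pseudogene, had 161 and 164 in Control and 352, 526 and 758 in Prox1 OE, and H2-M6-ps, a rarely read pseudogene, had 9.04 and 6.78 against 55.2, 50.7 and 46.3. Their log2 fold changes were 1.67 and 2.55 (limma adjusted p = 0.0071 and 0.0033).

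H2-Q2, named because it was the single member that fell, had 1119 and 453 normalised counts in Control and 227, 342 and 242 in Prox1 OE. All Prox1 OE values were under both Control values, but the Control libraries lay further apart than the lower of them lay from the Prox1 OE libraries. The log2FC was -1.42 (limma adjusted p = 0.025), and the call was lost without Control library 1, without Prox1 OE library 1, without Prox1 OE library 3, and in limma without the trend. The log2FC was -0.77 without Control library 1 and -2.07 without Control library 2. Of the uncalled heavy chains, H2-Q4 had 6546 and 5925 in Control and 5784, 7060 and 6024 in Prox1 OE, with a 95% confidence interval of the log2 fold change from -0.30 to 0.31. H2-Q6, H2-Q7, H2-M3, H2-Q5, H2-T10 and H2-T-ps had log2 fold changes between -0.07 and 0.38, and H2-T24, H2-M2 and H2-Bl had 0.87, -0.66 and 0.48 with wide intervals. H2-Q7, at 0.38, had an adjusted p of 0.068 in limma. Of its 100-base windows 12.0% also occur in transcripts of other genes, 5.56% in those of H2-Q10. For H2-Q5 14.0% do, chiefly in H2-Q7. The part of shared reads in these values was not tested.

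Of the 6 genes that make and load class I peptides 1 rose and 5 were not called, with a median log2 fold change of 0.16. The share that rose, 16.7%, was near the 17.1% of all genes called higher. Psmb10 had 2065 and 1826 normalised counts in Control and 2313, 3587 and 3437 in Prox1 OE (log2FC 0.65, limma adjusted p = 0.041). Its library 1 was close to the Control values, and the call was lost without either Control library, without Prox1 OE library 2 or 3, in limma without the trend (limma adjusted p = 0.096) and with no filter on low genes (limma adjusted p = 0.073). Psmb9 had 2549 and 2122 in Control and 2664, 3220 and 3281 in Prox1 OE (log2FC 0.39, limma adjusted p = 0.074). Psmb8 had 4227 and 3959 against 3599, 4864 and 4475, which overlapped.

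The peptide transporter and tapasin also overlapped between groups. Tap1 had 2650 and 2530 normalised counts in Control and 2611, 3102 and 2826 in Prox1 OE. Tap2 had 3857 and 3314 against 2945, 3365 and 2779 (log2FC -0.24, limma adjusted p = 0.19). Tapbp had 7994 and 7932 against 7850, 9448 and 9841. Exons of Tap1 and Psmb9 overlap by 212 bases on opposite strands, and the strand setting of the counting is not given in the sources used here.

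Psmb8, Psmb9 and Psmb10 replace Psmb5, Psmb6 and Psmb7 in the immunoproteasome. Per kilobase, Psmb8 stood at 0.239 and 0.223 of the Psmb5 level in Control and 0.131, 0.166 and 0.138 in Prox1 OE, without overlap, and Psmb5 itself rose (log2FC 0.75, limma adjusted p = 0.0045). The ratios of Psmb9 to Psmb6 and of Psmb10 to Psmb7 overlapped between groups. Of 14 standard core subunits 4 rose (Psma4, Psmb3, Psmb5 and Psmb7) and none fell, with a median log2 fold change of 0.36. Of all genes tested, 17.1% were called higher. Of 7 further loading genes Tapbpl alone was called, at 0.35 (limma adjusted p = 0.048), while the chaperones Calr and Canx had 0.12 and -0.24 and were not called. Scaled to the total count, all of these calls were lost, Psmb5 included (log2FC 0.31, limma adjusted p = 0.061), and Tapbpl and Psma4 had log2 fold changes of -0.08 and -0.03. Canx, Erap1 and Pdia3 were then called lower, at -0.67, -0.62 and -0.47 (limma adjusted p = 0.0040, 0.0098 and 0.031). In that fit the median of all genes was -0.45, and 8328 of 17145 were called.

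Class II genes had a higher median than class I chains, 0.93 on the log2 scale. Of 9 genes 6 rose and none fell, and in all 9 the Prox1 OE libraries were above both Control libraries. Over all genes tested, 17.1% were called higher and in 63.3% the groups did not overlap. The invariant chain Cd74 had 9411 and 7414 normalised counts in Control and 14177, 16707 and 16968 in Prox1 OE (log2FC 0.93, limma adjusted p = 0.0052). H2-Aa, the α chain of H2-A, had 3632 and 2744 against 6416, 7052 and 8039 (log2FC 1.18, limma adjusted p = 0.0032). H2-Ab1, its β chain, had 3518 and 2888 against 5230, 6708 and 6971 (log2FC 0.97, limma adjusted p = 0.0053). H2-Eb1, the β chain of H2-E, had 3041 and 2245 against 5250, 6524 and 7272 (log2FC 1.27, limma adjusted p = 0.0036). In all 4 genes Control library 1 was above Control library 2, and Prox1 OE library 1 was the lowest of its group. The call of Cd74 was lost without Control library 2 (limma adjusted p = 0.053).

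Per kilobase, Cd74 was read at 3.93 to 4.09 times the H2-Ab1 level in Control and 3.72 to 4.15 times in Prox1 OE, so this ratio overlapped. The ratio of H2-Aa to H2-Ab1 did not, at 0.698 and 0.642 in Control and 0.829, 0.711 and 0.780 in Prox1 OE. H2-DMa and H2-DMb1, the peptide editor, rose by 0.90 and 0.68 on the log2 scale (limma adjusted p = 0.0039 and 0.042), and the call of H2-DMb1 was lost without Control library 2, where the log2FC was 0.37, without Prox1 OE library 2 or 3, in limma without the trend (limma adjusted p = 0.083) and with no filter on low genes (limma adjusted p = 0.070). H2-DMb1 and H2-DMb2 share 11.3% and 10.3% of their 100-base windows with each other, and 10.4% of the H2-DMa exon bases overlap Brd2 on the other strand. H2-Oa and H2-Ob, which restrain H2-DM and are typical of B cells, had log2 fold changes of 0.89 and 1.06 (limma adjusted p = 0.074 and 0.055), and H2-DMb2 had 0.27.

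**Figure D3:**
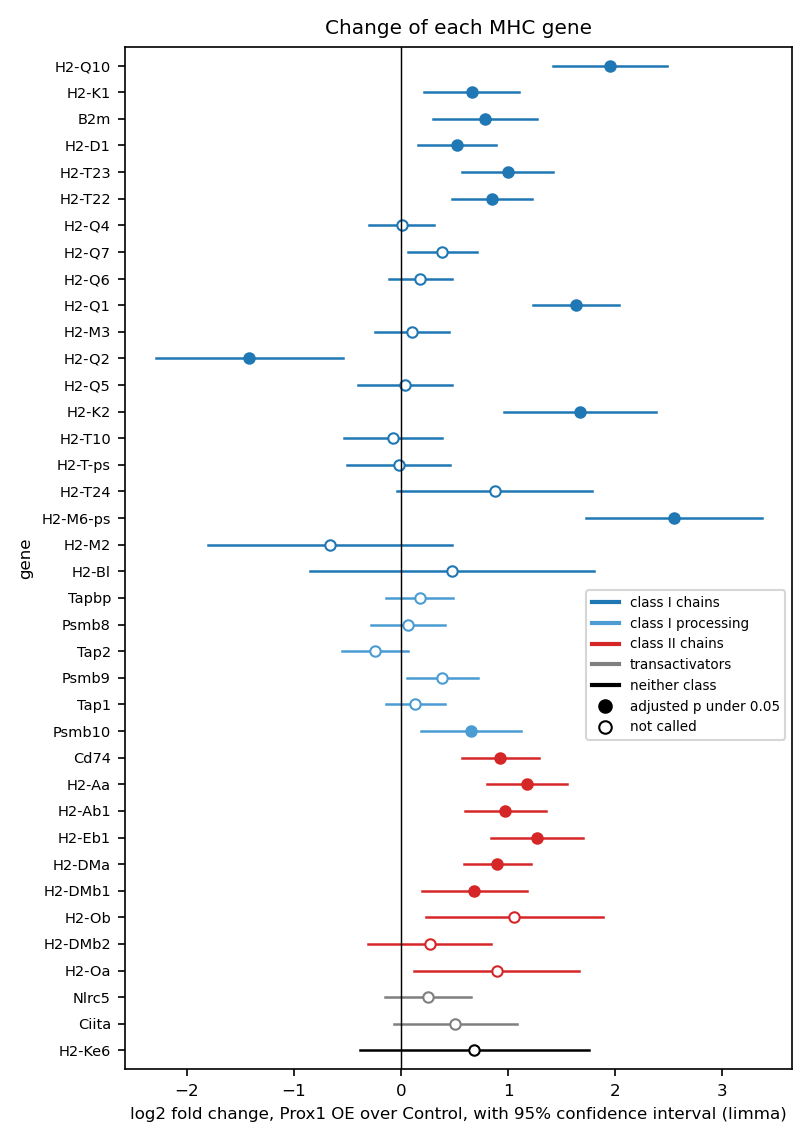
Points give the log2 fold change of each of the 38 genes, Prox1 OE over Control, with 95% confidence intervals from limma, filled where the adjusted p was under 0.05. Class II genes lie between 0.27 and 1.27, whereas class I chains spread from -1.42 to 2.55. The upper end is H2-M6-ps, which met the rule only through Prox1 OE.

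By library, the median deviation from the Control mean over the class I chains was 0.08 and -0.08 in Control and 0.49, 0.44 and 0.48 in Prox1 OE on the log2 scale. Over the class II genes it was 0.14 and -0.14 in Control and 0.71, 0.94 and 1.13 in Prox1 OE. The class II median exceeded the class I median by 0.43, a description with no test. Both medians depend on scaling: scaling to the total count moved the median of all genes from -0.02 to -0.45, and gave class medians of 0.08 and 0.50. Under that scaling H2-K1, H2-D1, B2m, H2-DMa, H2-DMb1 and Psmb10 lost their call, Tap2 was called lower (limma adjusted p = 0.012), and 11 genes of small change, none of them called, turned from positive to negative.

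Neither transactivator was called. Ciita had 184 and 141 normalised counts in Control and 292, 210 and 196 in Prox1 OE (log2FC 0.51, limma adjusted p = 0.15). Its groups did not overlap, with Prox1 OE library 1 the highest. Nlrc5 had 812 and 915 against 837, 1106 and 1165, which overlapped (log2FC 0.25, limma adjusted p = 0.30). H2-Ke6, an enzyme gene of the complex that belongs to neither class, had 19.7 and 26.3 against 21.5, 44.8 and 53.2 and was not called.

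Among the factors known to act at MHC promoters that are reported here, Nfya, Creb1 and Nfkb1 fell. Nfya, a subunit of the CCAAT-binding complex, Creb1 and Nfkb1 had log2 fold changes of -0.74, -0.69 and -0.44 (limma adjusted p = 0.013, 0.0048 and 0.038). Rfx5, Rfxap and Rfxank, which bind the X box, had 0.02, -0.18 and 0.19 and were not called. On the total count scale Rfxap was called lower, at -0.62 (limma adjusted p = 0.037), as were Nfyc, Irf2 and Rela (limma adjusted p = 0.032, 0.017 and 0.0084). The median of all genes on that scale was -0.45.

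Interferon-stimulated genes rose in part. Of 14 genes 7 rose and none fell, with a median log2 fold change of 0.57, while 17.1% of all genes tested were called higher. Iigp1, an interferon-induced GTPase, had 2516 and 3054 normalised counts in Control and 4883, 5574 and 9042 in Prox1 OE (log2FC 1.18, limma adjusted p = 0.013). Cxcl9, a T cell chemokine induced by interferon-γ, had 315 and 238 against 1055, 1302 and 2117 (log2FC 2.38, limma adjusted p = 0.0027), while Cxcl10 had a log2 fold change of -0.27 and was not called. Among the genes of interferon reception and signalling that are reported here, Stat2 and Tyk2 rose and Ifngr1 and Socs1 fell. Ifng itself had a mean under 10 and was not tested. Under scaling to the total count, Igtp, Iigp1 and Cxcl9 stayed called among the interferon-stimulated genes, while Gbp3, Irgm1, Ifit3 and Oas1a lost their call. Stat2 and Tyk2 also lost theirs, at log2 fold changes of 0.25 and -0.06, and Cxcl10, Ifngr2, Ifnar1, Jak1 and Jak2 were called lower. All genes had a median of -0.45 under this scaling.

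Class II peptides are made in endosomes by cathepsins and the reductase Ifi30. Of 9 class II processing genes 5 rose and none fell: Ctsb, Ctsd, Ctsl, Ctsh and Ifi30. The share of all genes called higher was 17.1%. Ctsd had 19313 and 20088 normalised counts in Control and 39639, 35600 and 38828 in Prox1 OE (log2FC 0.95, limma adjusted p = 0.0035). Lgmn had a limma adjusted p of 0.997 and was not called. When libraries were scaled by their total, Ctsl and Ctsd stayed called, Ctsb lost its call (log2FC 0.26, limma adjusted p = 0.19), as did Ctsh and Ifi30, which had log2 fold changes of -0.01 and -0.03.

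MHC-like molecules encoded outside the complex moved in both directions. Of 9 genes 5 rose and 2 fell, with a median log2 fold change of 0.93. Over all genes tested, 17.1% were called higher and 16.2% lower. Cd1d1, which presents lipids to NKT cells, had 2880 and 3647 normalised counts in Control and 9109, 8731 and 11064 in Prox1 OE (log2FC 1.56, limma adjusted p = 0.0023). Azgp1, a secreted protein of class I fold, and Fcgrt, the neonatal Fc receptor that pairs with B2m, rose by 1.58 and 1.02. Ulbp1, a ligand of the NKG2D receptor, had a log2 fold change of -1.28, and Procr, the endothelial protein C receptor, one of -0.99. Raet1e, another NKG2D ligand and among those that rose, lost its call under scaling to the total count, and Mr1 was then called lower. The median of all genes was then -0.45. Of 6 co-stimulatory or co-inhibitory ligands tested, Tnfsf9 had a log2 fold change of -1.29 and was the only one called, and Cd86 and Cd274 had 0.59 and 0.49 and were not called.

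Markers of cells that carry class II are given beside the class II genes, whose summed normalised counts were 20784 and 16223 in Control and 32773, 38842 and 41130 in Prox1 OE. The 6 leukocyte markers summed to between 5584 and 7249 in Control and between 8327 and 10178 in Prox1 OE, and Cd52 and Cd37 rose. Of 7 Kupffer cell markers 4 rose (Clec4f, Vsig4, Cd5l and Folr2), with sums of 6738 to 9831 and of 16236 to 25588. Of 8 monocyte and macrophage markers Aif1 rose and Itgam fell, with sums of 15699 to 21475 and of 22411 to 39401. Of 8 dendritic cell markers Cd209a alone was called, and the sums, 1056 to 1259 and 1255 to 1436, overlapped. Of 6 B cell markers tested Cd79b alone was called, and the 8 listed markers summed to 142 to 163 and to 235 to 290. Over all genes tested, 17.1% were called higher and 16.2% lower. The shares called among dendritic cell, B cell, and monocyte and macrophage markers were under these in each direction. Scaled to the total count, Cd52, Cd37, Vsig4, Cd209a and Cd79b lost their call and Zbtb46, a dendritic cell marker, was called lower. That scaling put the median of all genes at -0.45. No marker in any list was at 3 reads or fewer in all libraries, and the part of these cells in the class II difference was not tested.

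Lymphocytes that read MHC molecules were also followed. Of 8 T cell markers 5 rose, Cd3e, Cd3d, Cd3g, Cd8a and Cd8b1, with sums of 171 to 215 in Control and 391 to 559 in Prox1 OE. Cd8a, part of the coreceptor for class I, had 32.0 and 19.5 normalised counts in Control and 60.3, 150 and 109 in Prox1 OE. Cd4, the coreceptor for class II, had a log2 fold change of 0.89 and was not called (limma adjusted p = 0.052). Under scaling to the total count, Cd3e, Cd3d and Cd8b1 lost their call. Of 5 NK cell markers tested Nkg7 and Gzmb rose. Among all genes tested, 17.1% were called higher. Sinusoidal endothelium had 3 of 6 markers higher, Stab2, Clec4g and Fcgr2b, with sums of 5106 to 7176 and of 9472 to 13977. Lyve1 was called lower on the total count scale, where the median of all genes was -0.45.

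**Figure D4:**
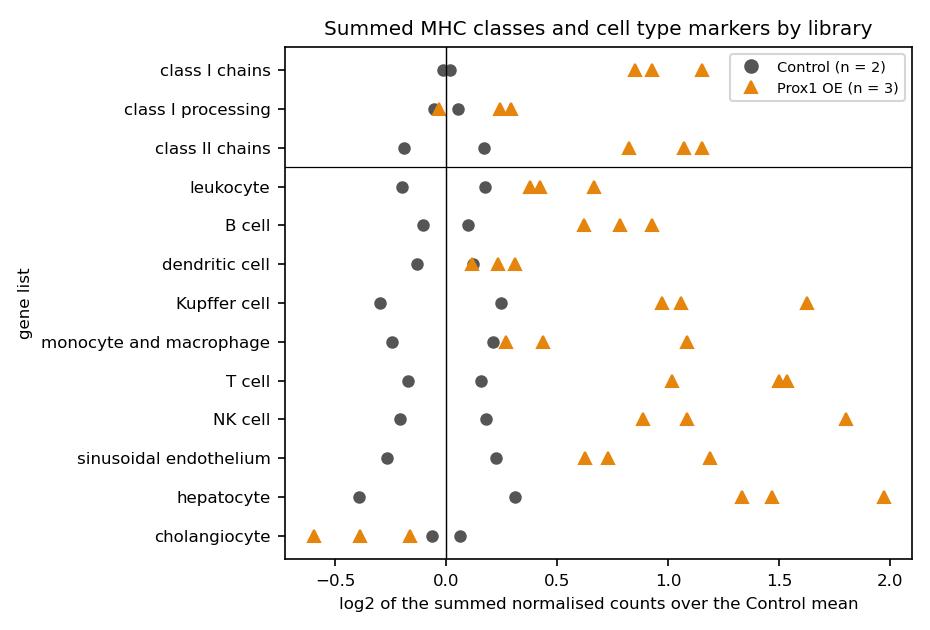
Each point is a library, placed by log2 of its summed normalised counts over the Control mean, for MHC classes above the line and cell type marker lists below it. Prox1 OE libraries lie right of both Control libraries for class I and class II chains and for Kupffer cell, T cell and hepatocyte markers, left of them for cholangiocyte markers, and overlap them for dendritic cell markers.

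The chromosome 17 neighbourhood did not move as a block. Between the outermost H2 members, at 33974659 and 37483552 of mm10, 101 other genes were tested, of which 16 were higher, 15 lower and 70 not called, with a median log2 fold change of -0.04. The higher share was close to the 17.1% of all genes.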

How the data were processed

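Bulk RNA-seq of 2 Control and 3 Prox1 OE tumours was used. Libraries kept strand (dUTP) and were read as pairs. The authors mapped reads to mm10 with STAR, and the deposited signal is reads per gene divided by a DESeq2 size factor. The counting tool and strand setting are not given in the sources used here. All values (100%) were whole multiples, within 0.01, of what 1 read was worth in their library, so whole reads were recovered. Symbols, coordinates and exon lengths came from GENCODE vM21 (55137 of 55397 identifiers, 99.5%). The authors' deposited table of fold changes and p-values was not used.

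log2(normalised count + 1) of genes with a mean of at least 10 was fitted with limma 3.58.1 (lmFit, eBayes with trend, no covariate) in R 4.3.3. The fold change of low genes is understated on this scale. Alternatives were other scalings, pseudocounts of 0.1 and 10, other filters, limma without trend, edgeR 4.0.16 and DESeq2 1.42.0 on recovered reads, a replicate block and each library left out. The procedure was tested on simulated data.

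Members and gene lists were chosen with earlier results of these data known. Named genes were members, with values per library for the classical chains, the 10 genes given by symbol and the 4 other H2 genes of largest change, and up to 4 genes of each list, called ones first. Further genes were named after their values were seen. Motifs and printed promoters were also chosen then. The lists of promoter factors and of interferon signalling hold a gene that is not reported here, so no counts are given for them.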

Additional observations from a re-analysis of the deposited data

How the results depend on the processing

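Over 604 values of the 38 genes under up to 16 alternatives, 535 kept their direction and side of the threshold, 38 lost and 10 gained a call, and 21 changed sign, 0 of them in a gene called in the reported fit. With the total count as library size, 11 had negative log2 fold changes in place of positive ones: H2-Q4 -0.42, H2-Q5 -0.39, Psmb8 -0.37, H2-M3 -0.33, Tap1 -0.30, Tapbp -0.25, H2-Q6 -0.25, Nlrc5 -0.18, H2-DMb2 -0.16, H2-Q7 -0.047 and Psmb9 -0.044. With 1 library left out, the sign of 7 genes depended on the library, with ranges of -0.077 to 0.081 for H2-Q4, -0.19 to 0.27 for H2-Q5, -0.0037 to 0.21 for H2-M3, -0.10 to 0.056 for H2-T-ps, -0.21 to 0.045 for H2-T10, -0.34 to 1.30 for H2-Bl and -0.028 to 0.19 for Psmb8. With the total count as library size 10 MHC genes were higher and 2 lower, and the class I and class II medians were 0.080 and 0.50. Without the trend 0 were lower, against 1 in edgeR and DESeq2. Leaving out 1 Prox1 OE library gave 12 (without library 3) to 22 higher genes (without library 1) and 0 to 1 lower. Of all genes, 4118 of 17101 and 7494 of 17114 were called in those fits, against 5702 of 17105 in the reported fit. Leaving out any 1 library gave class I medians of 0.38 to 0.62, class II medians of 0.83 to 1.10 and differences of 0.34 to 0.58. Where 1 Control library remained, it is assumed to vary like the Prox1 OE libraries. Class I medians were 0.59 for protein-coding chains and 0.66 for chains sharing under 5% of windows, settings chosen after seeing the data, in which class II exceeded class I by 0.34 and 0.31.

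A replicate block leaves out Prox1 OE library 3, which has no partner. In that fit 15 members (14 higher, 1 lower) and 5187 genes were called, and H2-K1 and H2-D1 lost their call (limma adjusted p = 0.073 and 0.087). Deviations of same-numbered libraries had correlations of 0.14 and 0.02, and no label ties them, so pairing was not established.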
